A study of Mus musculus with 8 samples.

Results

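In all, 32 genes of macrophages and other myeloid cells were followed across 8 one-colour microarrays of mouse brown fat, the tissue that burns lipid to make heat. The genes were taken from a fixed list, and each was read from its highest-mean probe set that names a single gene, so that 32 of the 22180 genes named on the array are described. All 8 arrays came from male C57BL/6J mice on normal chow, 14 weeks of age, fasted overnight and refed chow for 1 h before harvest. Of these, 3 arrays were labelled wild type (WT) and 5 were labelled Abhd15 KO, for mice that lack Abhd15, a gene of the alpha/beta hydrolase family, with 1 mouse per array and no treatment beyond refeeding; the latter are called the KO-labelled arrays here. The sources used here do not say how the deletion was made or which part of the gene it removes, and name no litters or scan dates. The comparison asks which transcripts differ between the genotypes shortly after feeding.

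Macrophages live in the stroma of fat between adipocytes, vessels and nerves, and depend on the receptor encoded by Csf1r for survival. Resident macrophages carry the adhesion receptor encoded by Adgre1, the mannose receptor (Mrc1) and the haemoglobin scavenger receptor (Cd163), and make the 3 chains of C1q (C1qa, C1qb, C1qc), the recognition protein of the classical complement pathway. Inflammatory macrophages and freshly arrived monocytes make cytokines such as interleukin 1 beta (Il1b), tumour necrosis factor (Tnf) and chemokines that draw in more leukocytes. In obese fat, macrophages around dying adipocytes load lipid and express Trem2, Gpnmb, Lgals3 and Itgax. The 32 genes were sorted by these roles into 7 resident, 9 pan-myeloid, 12 inflammatory and 4 lipid-associated members.

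Values are log2 signals after RMA, a method that corrects background, equalises the arrays' distributions and summarises the probes of each probe set. The 8 arrays were closely alike, with medians of 3.00 to 3.04 and pairwise correlations of 0.964 to 0.975 over the probe sets. A value of 2.88 or less was treated as dim, and 13229 genes, 26 of the members among them, were above it in at least 3 arrays and were tested. Abhd15 read 6.01 ± 0.19 (SD, n = 3) in WT and 6.12 ± 0.27 (SD, n = 5) in the KO-labelled arrays, so its probe set was not lower there. A probe set outside the deleted part checks nothing, and every direction below rests on the labels. Macrophage transcripts were present in every array: Adgre1, Csf1r, Cd68 and C1qa were above the dim limit in all 8. WT replicate 2 and KO replicate 1 stand apart from the other arrays, among others in genes that respond to feeding or handling. They were the highest pair in 9.63% of all genes tested. Their deviations from the label means correlated at 0.39, the highest value of any WT array with a KO-labelled array. Angptl8, a lipoprotein lipase regulator that feeding induces, was low in both (7.95 and 7.90), the other 6 arrays reading 10.42 to 10.81. The immediate early gene Fos was high in both (5.64 and 4.96, with 2.58 to 3.64 elsewhere), as was Egr1 (6.58 and 5.39, with 3.21 to 4.80 elsewhere). Nothing in the labels separates these arrays from the rest.

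No myeloid gene passed the comparison of the labels. With limma and Benjamini-Hochberg adjustment over all genes tested, 0 of the 26 tested members reached an adjusted p of 0.05, where the background over all 13229 genes was 0%. Every tested member had an adjusted p of 0.9997 in limma. At an unadjusted p under 0.05 in limma, 2 members had a lower mean in the KO-labelled arrays (Mpeg1 and Ccl6), where 1.77% of all genes tested were, and 0 were higher, against 2.24%. Of the tested members 20 had a lower mean and 6 a higher mean in the KO-labelled arrays, with a median difference of −0.20 log2, beside 48.3% lower and a median of 0.01 over all genes tested. Counting the dim members too, 24 of 32 were lower. Without WT replicate 2 the count fell to 13 of 26 and the median to −0.02, without WT replicate 1 the median was −0.44, without KO replicate 1 it was −0.30, and without KO replicate 2 it was −0.09. In a bulk tissue sample, a difference in the number of macrophages and one in the RNA per macrophage could not be told apart.

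**Figure D1:**
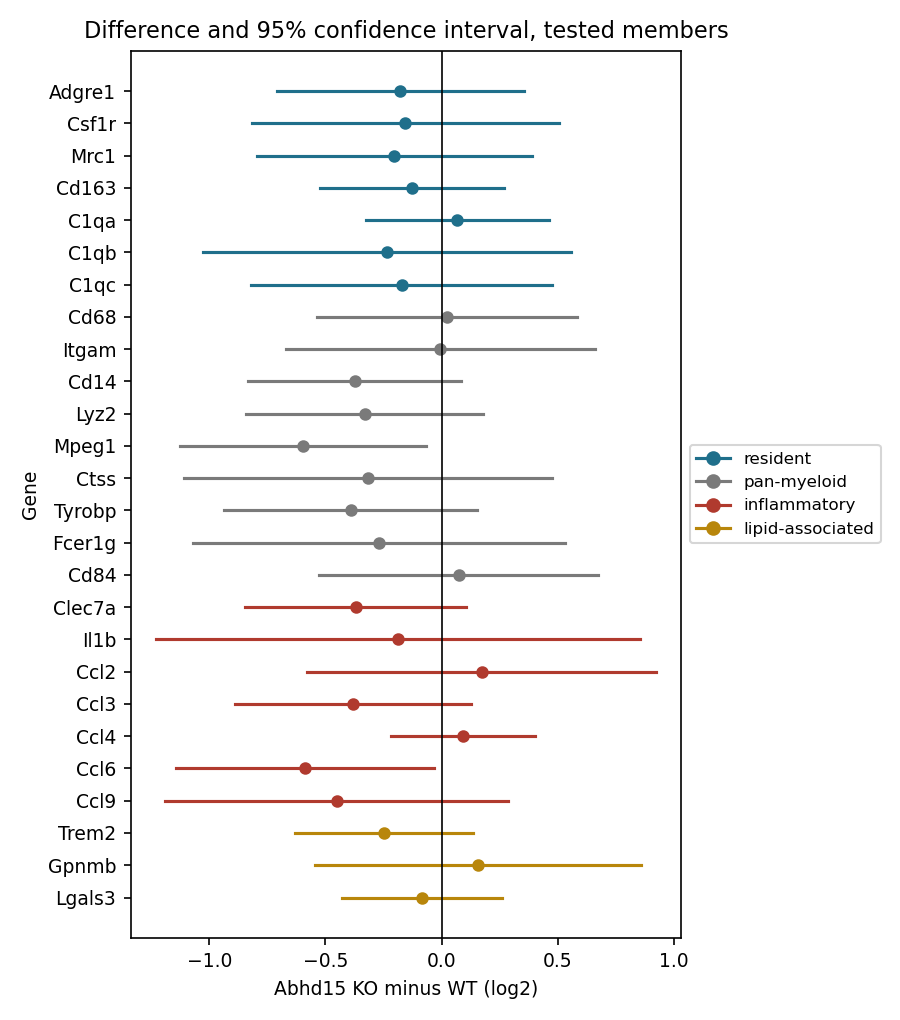
Differences of the 26 tested members, arrays labelled Abhd15 KO (n = 5) minus WT (n = 3), on the log2 scale. Points are fitted differences, lines are unadjusted 95% confidence intervals from limma, and colours give the role. Only the intervals of Mpeg1 and Ccl6 leave out 0.

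The members differed more between mice of one label than most genes on the array. The median spread within the labels (pooled SD) was 0.39 log2 for the tested members and 0.23 for all genes tested, and 24 of the 26 lay above the latter. The median half-width of the 95% confidence interval was 0.56 for the members and 0.36 for all genes. Over the members the half-width ran from 0.31 for Ccl4 to 1.04 for Il1b.

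The 7 resident genes varied alike from mouse to mouse, across the labels. In all 7 the highest arrays were WT replicate 2 and KO replicate 1, an order that 9.63% of all genes tested share. In 6 of the 7 the lowest array was KO replicate 2, as in 11.5% of all genes tested. The exception was Adgre1, lowest in KO replicate 3. These highest arrays are those low in Angptl8 and high in Fos and Egr1, and the part of that state in the resident genes was not tested.

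Csf1r, the receptor for the macrophage growth factor CSF1, read 5.24, 6.52 and 5.85 in the WT mice and 6.15, 5.21, 5.82, 5.49 and 5.89 in the KO-labelled arrays, each in the order of replicate numbers, as for all genes below. The lowest WT mouse and the lowest mouse labelled Abhd15 KO were nearly equal, and the difference was −0.16 (95% confidence interval −0.82 to 0.51, exact two-sided permutation p = 0.679). Adgre1, an adhesion G protein-coupled receptor used to mark mouse macrophages, read 3.92, 4.79 and 4.36 in WT and 4.65, 3.95, 3.84, 4.08 and 4.39 in the KO-labelled arrays. The groups overlapped over almost their whole ranges (difference −0.18, −0.71 to 0.35, exact permutation p = 0.571).

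Mrc1, the endocytic mannose receptor, read 6.29, 7.14 and 6.69 in WT and 7.07, 5.97, 6.44, 6.74 and 6.31 in the KO-labelled arrays. Its difference was −0.20 (−0.80 to 0.39, exact permutation p = 0.536). Cd163 varied less, with 5.81, 6.15 and 6.10 in WT and 6.19, 5.44, 5.85, 6.07 and 5.92 in the KO-labelled arrays (difference −0.13, −0.52 to 0.27, exact permutation p = 0.625). In both genes KO replicate 2 was below every other array.

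The C1q genes encode the A, B and C chains that assemble in equal numbers into 1 protein. C1qa read 5.30, 5.78 and 5.50 in WT and 5.95, 5.21, 5.63, 5.53 and 5.66 in the KO-labelled arrays, C1qb 5.83, 7.16 and 6.47 and then 7.0, 5.60, 6.09, 6.06 and 6.51, and C1qc 3.61, 4.88 and 4.18 and then 4.42, 3.52, 4.01, 4.32 and 3.99. From the lowest to the highest array C1qb spanned 1.56 log2, C1qc 1.36 and C1qa 0.73. The label differences were 0.07 for C1qa (−0.33 to 0.46), −0.23 for C1qb (−1.03 to 0.56) and −0.17 for C1qc (−0.82 to 0.48), each smaller than the spread between mice of one label.

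**Figure D2:**
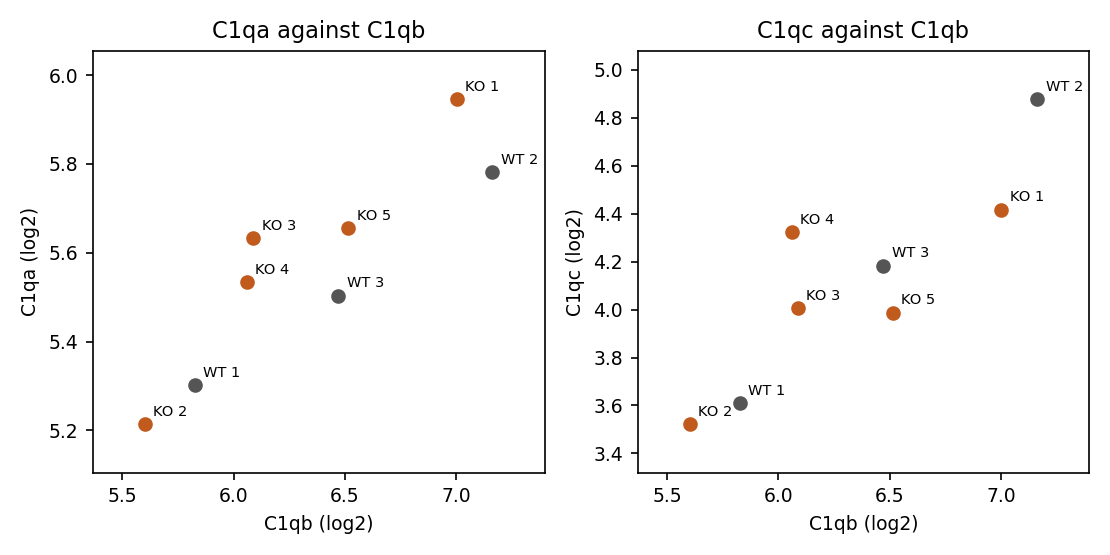
Log2 values of C1qa (left) and C1qc (right) against C1qb in the 8 arrays, WT in grey and Abhd15 KO in orange, each point 1 mouse named by label and replicate. KO replicate 2 and WT replicate 1 lie lowest on both axes, and WT replicate 2 and KO replicate 1 highest, in both panels.

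Partner genes were compared over the 8 arrays in 8 pairs fixed with the design, and all points share 1 normalization. C1qa and C1qb had a Pearson r of 0.89 (exact two-sided permutation p = 0.00367, adjusted over the 8 pairs 0.0187) and a Spearman rho of 0.90 (exact p = 0.00456, adjusted 0.0365), and r was 0.80 without KO replicates 1 and 2, the arrays farthest from the median of C1qa. C1qb and C1qc had an r of 0.87 (exact p = 0.00466, adjusted 0.0187) and a rho of 0.79 (exact p = 0.0279, adjusted 0.098), with an r of 0.70 without WT replicate 2 and KO replicate 1. C1qa and C1qc had an r of 0.80 (exact p = 0.0179, adjusted 0.0358) and a rho of 0.76 (exact p = 0.0368, adjusted 0.098), with an r of 0.77 without KO replicates 1 and 2. The 3 C1q pairs thus had an r of 0.70 to 0.80 with 6 arrays, while on ranks only C1qa with C1qb passed after adjustment. All 7 resident genes shared the same highest arrays, and the 8 pairs held no other resident genes. Whether the C1q chains vary together more closely than other resident genes was therefore not tested.

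C1qb, C1qc and Mrc1 had the same pair of highest arrays and the same lowest array, and so had Csf1r, Cd163 and C1qa. The 250 bases before the gene starts of C1qb, C1qc and Mrc1 are shown. They come from RefSeq sequences of build GRCm38.p6, each 5′ to 3′ on the gene's strand. Capitals mark matches on either strand to 3 short motifs: the core of the PU.1 site (GAGGAA), PU.1 (Spi1) being the lineage factor of myeloid cells, the AP-1 site (TGANTCA) and the TATA box (TATAAA).
C1qb (chr4:136886201-136886450, strand minus): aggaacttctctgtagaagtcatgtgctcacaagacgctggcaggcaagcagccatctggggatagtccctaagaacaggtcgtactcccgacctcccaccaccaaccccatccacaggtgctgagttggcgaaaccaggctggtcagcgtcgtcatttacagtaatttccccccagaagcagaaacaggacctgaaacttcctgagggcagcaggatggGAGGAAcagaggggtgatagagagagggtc
C1qc (chr4:136892915-136893164, strand minus): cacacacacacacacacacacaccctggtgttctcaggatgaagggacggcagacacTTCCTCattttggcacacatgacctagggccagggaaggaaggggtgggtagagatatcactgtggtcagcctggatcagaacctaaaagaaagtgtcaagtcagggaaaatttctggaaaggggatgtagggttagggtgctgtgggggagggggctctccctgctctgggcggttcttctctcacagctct
Mrc1 (chr2:14229164-14229413, strand plus): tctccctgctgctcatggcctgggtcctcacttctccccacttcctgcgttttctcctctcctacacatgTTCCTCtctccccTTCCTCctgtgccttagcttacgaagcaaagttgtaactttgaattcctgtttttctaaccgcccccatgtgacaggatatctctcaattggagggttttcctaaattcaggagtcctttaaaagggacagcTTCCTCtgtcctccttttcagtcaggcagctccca
The single PU.1 core of C1qb starts at position −30 from the gene start and that of C1qc at −193, and Mrc1 holds 3. The table of promoters held 25 of the 32 members, and 13 of these (52%) contained the PU.1 core, beside 23.1% of all 27025 promoters. The AP-1 motif was found in 6 of the 25 and in 6.87% of all, and the TATA motif in 5 of the 25 and in 13% of all. Cd163, which had the same array order, was among the 25 and held none of the 3 motifs. Csf1r and C1qa were not among the 25. A match is a description of letters and not a binding site.

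**Figure D3:**
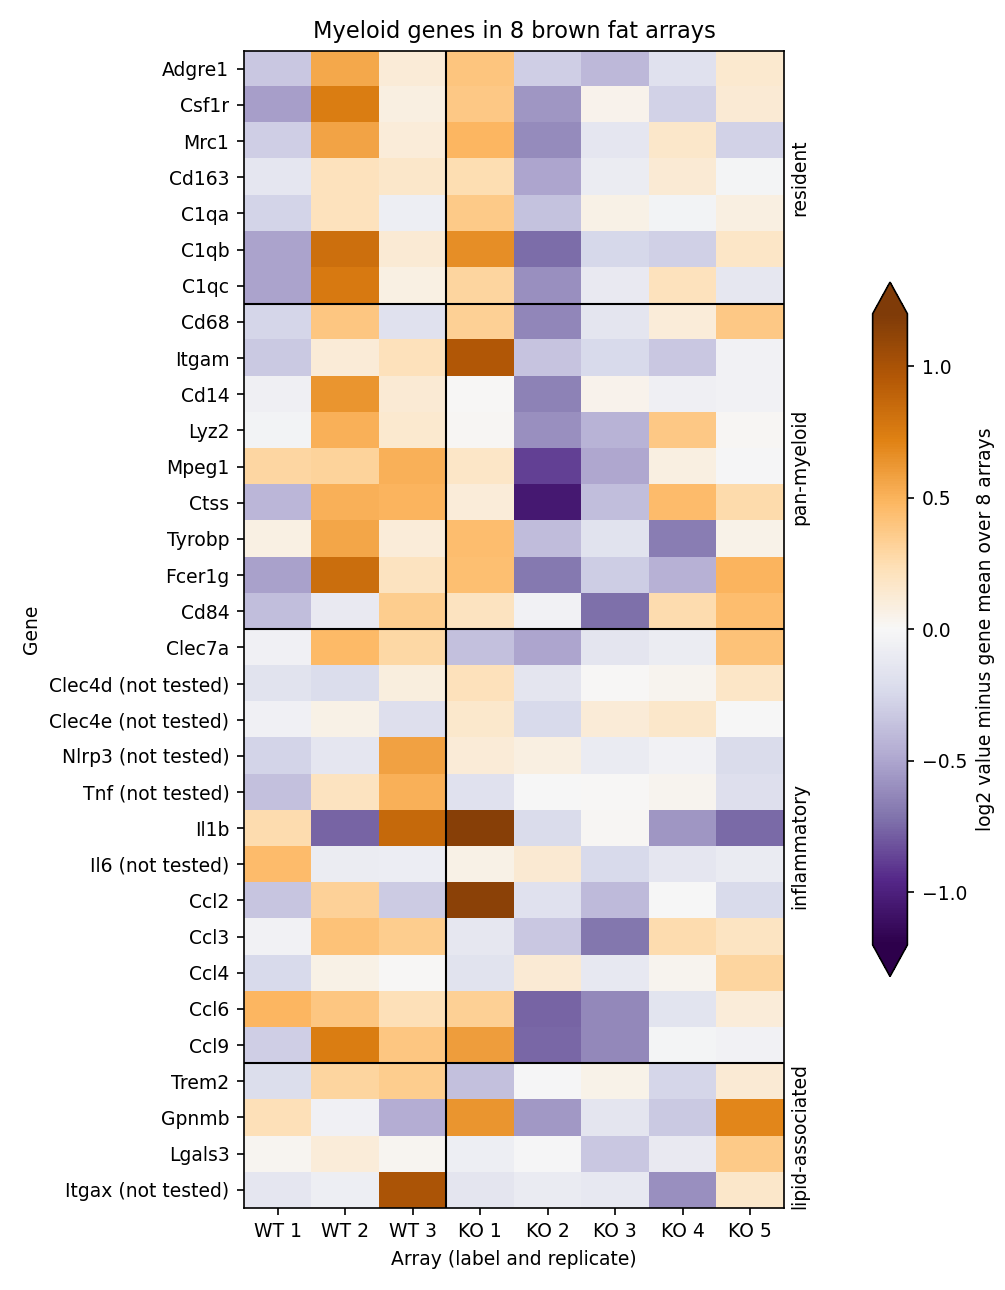
Log2 value of each of the 32 myeloid genes in each array, minus the gene's mean over the 8 arrays (orange above, purple below), grouped by role, with WT arrays left of the vertical line. WT replicate 2 and KO replicate 1 are orange down the resident block and KO replicate 2 is purple there, and the inflammatory and lipid-associated blocks are more mixed.

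Among the 9 pan-myeloid genes, which macrophages share with monocytes and other myeloid cells, 7 had a lower and 2 a higher mean in the KO-labelled arrays (median −0.32). Mpeg1, a pore-forming protein of phagocytes, read 5.36, 5.38 and 5.58 in WT and 5.24, 4.19, 4.58, 5.15 and 5.05 in the KO-labelled arrays. All 5 of the latter lay below all 3 WT arrays. Mpeg1 was the only tested member whose groups did not overlap, as in 1.19% of all genes tested in this direction, and 0 members were apart in the other, as 1.58% of all genes were. KO replicate 1 (5.24) was only just below the lowest WT array. The difference was −0.60 (−1.13 to −0.07, limma p = 0.0313 unadjusted, exact permutation p = 0.0714), which did not pass the adjusted threshold.

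Unlike the resident genes, Mpeg1 was no lower in WT replicate 1 than in any KO-labelled array. Its upstream sequence, shown because Mpeg1 alone separated the labels, held none of the 3 motifs.
Mpeg1 (chr19:12460520-12460769, strand plus): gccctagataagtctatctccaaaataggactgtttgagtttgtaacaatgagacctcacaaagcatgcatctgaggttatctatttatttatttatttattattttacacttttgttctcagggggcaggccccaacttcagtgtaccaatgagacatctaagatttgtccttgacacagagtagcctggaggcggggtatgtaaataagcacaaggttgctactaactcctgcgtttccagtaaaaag

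Cd14, the endotoxin co-receptor of monocytes and macrophages, read 4.41, 5.10 and 4.60 in WT and 4.47, 3.82, 4.51, 4.41 and 4.43 in the KO-labelled arrays (difference −0.37, −0.83 to 0.08, exact permutation p = 0.125). Apart from KO replicate 2 the latter lay close together, near the lower WT values. Tyrobp, the adaptor that carries an activating motif for receptors such as TREM2, read 4.36, 4.85 and 4.40 in WT and 4.73, 3.90, 4.12, 3.62 and 4.34 in the KO-labelled arrays (difference −0.39, −0.93 to 0.15, exact permutation p = 0.196). Fcer1g, the adaptor of Fc receptors, spanned 4.85 to 6.36 over the arrays and differed by −0.27 (−1.07 to 0.53). Tyrobp and Fcer1g had an r of 0.81 over the 8 arrays (exact permutation p = 0.0149, adjusted 0.0358) and a rho of 0.69 (exact p = 0.0694, adjusted 0.139), with an r of 0.75 without WT replicate 2 and KO replicate 4 and of 0.59 without WT replicate 2 and KO replicate 1.

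The other pan-myeloid genes overlapped widely between the labels. Lyz2, the lysozyme of macrophages and neutrophils, differed by −0.33 (−0.84 to 0.18) and Ctss, the lysosomal protease cathepsin S, by −0.32 (−1.11 to 0.48). Ctss was low in WT replicate 1 (5.53) and KO replicates 2 and 3 (4.90 and 5.56) and between 6.05 and 6.45 in the other 5 arrays. Cd68, a lysosomal membrane protein used as a macrophage marker, differed by 0.02 (−0.54 to 0.58), and Cd84, an adhesion receptor of leukocytes, by 0.07 (−0.53 to 0.67). Itgam, the alpha chain of the complement receptor CD11b/CD18, had nearly equal means (difference −0.01, −0.67 to 0.66), but KO replicate 1 read 4.82 against 3.50 to 4.08 in the other 7 arrays. Of the 9 pan-myeloid genes 7 were lowest in KO replicate 2.

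Of the 12 inflammatory genes, 5 were too dim to be tested. Il6, Clec4d and Clec4e, the latter pair encoding receptors for microbial glycolipids, were at or below the dim limit in all 8 arrays. Nlrp3, the inflammasome sensor, was above it only in WT replicate 3 (3.27), and Tnf only in WT replicates 2 and 3 (3.05 and 3.35). Il1b was above it in 4 arrays, with 3.20, 2.17 and 3.80 in WT and 4.10, 2.72, 2.96, 2.38 and 2.19 in the KO-labelled arrays, whose mean (2.87) lay below the limit. Its array order differed from that of the resident genes in WT replicate 2, the highest array of 14 of the 26 tested members and of 15.9% of all genes tested. Il1b read lowest there, but below the dim limit and close to KO replicate 5, so that rank carries little weight. The highest array for Il1b was KO replicate 1, where the resident genes were also high.

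The chemokine genes Ccl6 and Ccl9 lie close together on chromosome 11 and encode ligands of the receptor CCR1 made by myeloid cells. Ccl6 read 4.73, 4.63 and 4.47 in WT and 4.58, 3.47, 3.62, 4.09 and 4.35 in the KO-labelled arrays. Only KO replicate 1 reached into the WT range, and the difference was −0.59 (−1.14 to −0.03, limma p = 0.0403 unadjusted, exact permutation p = 0.0893), which did not pass the adjusted threshold. Ccl9 read 5.93, 6.97 and 6.62 in WT and 6.82, 5.47, 5.60, 6.20 and 6.18 in the KO-labelled arrays (difference −0.45, −1.19 to 0.29, exact permutation p = 0.304). WT replicate 1 was high for Ccl6 and low for Ccl9. Their r was 0.77 over the 8 arrays (exact permutation p = 0.0289, adjusted 0.0463) and rho 0.62 (exact p = 0.115, adjusted 0.184), but r was 0.25 without KO replicates 2 and 3, so the relation rests on those arrays.

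The upstream sequences of this chemokine pair are shown side by side, 250 bases each, with the same 3 motifs in capitals.
Ccl6 (chr11:83593088-83593337, strand minus): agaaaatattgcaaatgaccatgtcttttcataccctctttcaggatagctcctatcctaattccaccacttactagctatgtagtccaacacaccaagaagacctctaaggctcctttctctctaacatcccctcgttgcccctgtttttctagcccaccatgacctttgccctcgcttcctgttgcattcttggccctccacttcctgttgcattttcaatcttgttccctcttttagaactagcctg
Ccl9 (chr11:83578637-83578886, strand minus): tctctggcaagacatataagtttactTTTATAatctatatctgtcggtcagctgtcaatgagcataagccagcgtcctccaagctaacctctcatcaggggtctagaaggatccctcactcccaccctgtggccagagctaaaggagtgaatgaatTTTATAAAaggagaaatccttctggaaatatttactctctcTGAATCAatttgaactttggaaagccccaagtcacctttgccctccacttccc
Ccl6 held no match. Ccl9 held 1 AP-1 motif at position −53 and 3 TATA matches, 2 of which overlap each other on opposite strands.

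Of the other chemokines, Ccl2, the main attractant of monocytes through the receptor CCR2, read 2.95, 3.62 and 2.98 in WT and 4.43, 3.12, 2.90, 3.29 and 3.06 in the KO-labelled arrays (difference 0.17, −0.58 to 0.92). A single mouse, KO replicate 1, was far above the rest. Ccl3 read 2.61, 3.06 and 3.00 in WT and 2.52, 2.31, 1.95, 2.91 and 2.84 in the KO-labelled arrays, near or below the dim limit throughout (fitted difference −0.38, −0.89 to 0.12). Ccl4, a chemokine that draws in monocytes and T cells, spanned only 3.13 to 3.67 (difference 0.09, −0.22 to 0.40). Ccl3 and Ccl4 had an r of 0.35 (exact permutation p = 0.393, adjusted 0.49) and a rho of 0.26 (exact p = 0.536, adjusted 0.536), with an r of 0.61 without KO replicates 2 and 3. Clec7a, the receptor for fungal glucans, read 3.75, 4.26 and 4.09 in WT and 3.43, 3.30, 3.66, 3.71 and 4.22 in the KO-labelled arrays (difference −0.37, −0.84 to 0.11, exact permutation p = 0.179), with only KO replicate 5 inside the WT range.

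**Figure D4:**
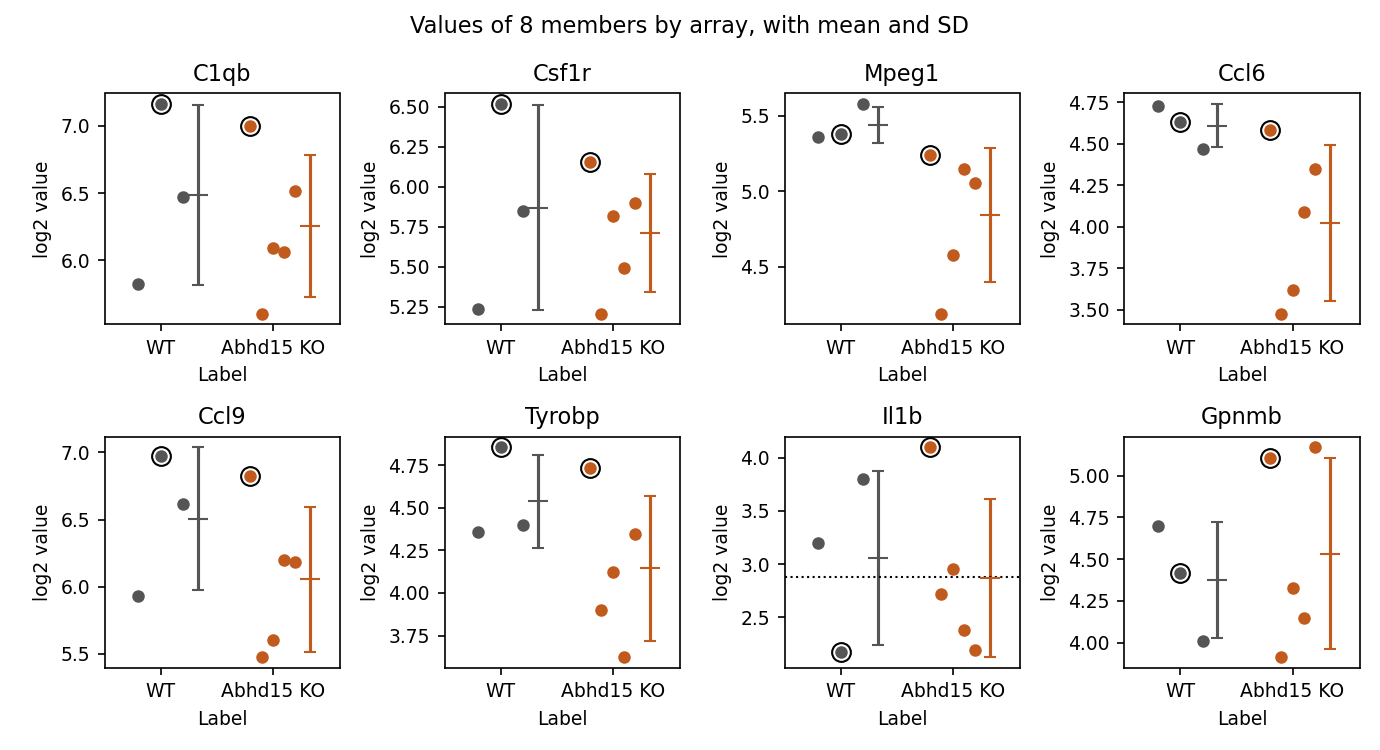
Log2 values of 8 members in each array, WT (3 mice, grey) and Abhd15 KO (5 mice, orange), with the mean and SD beside the points. Circles mark WT replicate 2 and KO replicate 1, the mice with little Angptl8, which are the highest arrays for C1qb, Csf1r, Ccl9 and Tyrobp, and the dotted line in the Il1b panel is the dim limit.

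KO replicate 1 was highest of the 8 arrays in 5 of the 26 tested members, as in 14.1% of all genes tested. The 5 were Itgam, Il1b and Ccl2 and the resident genes Cd163 and C1qa. Some granulocyte and red cell transcripts were highest in the same array. Of the 12 neutrophil markers 7 peaked there (Camp, Cxcr2, Ly6g, Mmp9, Retnlg, S100a8 and S100a9), while Mpo, Elane, Ltf, Ngp and Mmp8 peaked in other arrays and Ltf was lowest there. S100a9 read 2.93 against 1.64 to 2.12 in the other 7 arrays, S100a8 2.83 against 1.79 to 2.24, both near or below the dim limit throughout, and Csf3r, the granulocyte growth factor receptor, 3.84 against 2.55 to 3.14. Slc4a1, the anion exchanger of red cells, read 4.38 against 2.60 to 3.81. Of the neutrophil markers 9 were at or below the dim limit in all 8 arrays, among them Ly6g, Mpo and Camp, and the mean level of that list ranged from 2.27 to 2.30 in WT and from 2.27 to 2.66 in the KO-labelled arrays. Their part in the Itgam, Il1b and Ccl2 values of this mouse was not tested.

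The 4 lipid-associated genes were low or without a shared order. Trem2, a lipid receptor that signals through Tyrobp, read 3.34, 3.85 and 3.89 in WT and 3.17, 3.52, 3.60, 3.28 and 3.67 in the KO-labelled arrays (difference −0.25, −0.63 to 0.14, exact permutation p = 0.232). Trem2 was lowest in KO replicate 1, where the resident genes were high. Trem2 and Tyrobp had an r of 0.29 (exact permutation p = 0.49, adjusted 0.49) and a rho of 0.31 (exact p = 0.462, adjusted 0.536), with an r of 0.76 without WT replicate 3 and KO replicate 1, the arrays farthest from the Trem2 median. The relation was thus not seen with all arrays. Clec4d and Clec4e, the remaining pair, had an r of 0.30 and a rho of 0.29 (exact permutation p = 0.45 and 0.501, adjusted 0.49 and 0.536), with 0.29 for r without WT replicate 2 and KO replicate 1, and both genes were dim in every array.

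Gpnmb, a lysosomal membrane glycoprotein of lipid-loaded macrophages, read 4.70, 4.42 and 4.01 in WT and 5.11, 3.91, 4.33, 4.15 and 5.17 in the KO-labelled arrays (difference 0.16, −0.55 to 0.86). KO replicates 1 and 5 were above all other arrays. Lgals3, galectin 3, stayed close to the dim limit, with 2.91, 2.99 and 2.91 in WT and 2.82, 2.87, 2.55, 2.78 and 3.26 in the KO-labelled arrays, whose mean (2.85) lay below it. Itgax, the integrin CD11c of inflammatory fat macrophages and dendritic cells, was above the limit only in WT replicate 3 (3.76) and KO replicate 5 (2.94) and was not tested.

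Each array was then summarised by role, as the mean over the tested members of the value minus the gene's mean over the 8 arrays. The resident score was −0.37, 0.55 and 0.09 in the WT mice and 0.41, −0.52, −0.13, −0.04 and 0.01 in the KO-labelled arrays. The inflammatory score was −0.03, 0.23 and 0.26 in WT and 0.37, −0.37, −0.37, −0.08 and −0.00 in the KO-labelled arrays. The lipid-associated score, over 3 genes, was 0.02, 0.12 and −0.03 in WT and 0.07, −0.20, −0.14, −0.23 and 0.40 in the KO-labelled arrays. The resident and inflammatory scores were both lowest in KO replicate 2, and the lipid-associated score was highest in KO replicate 5, a mouse of middling resident score.

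**Figure D5:**
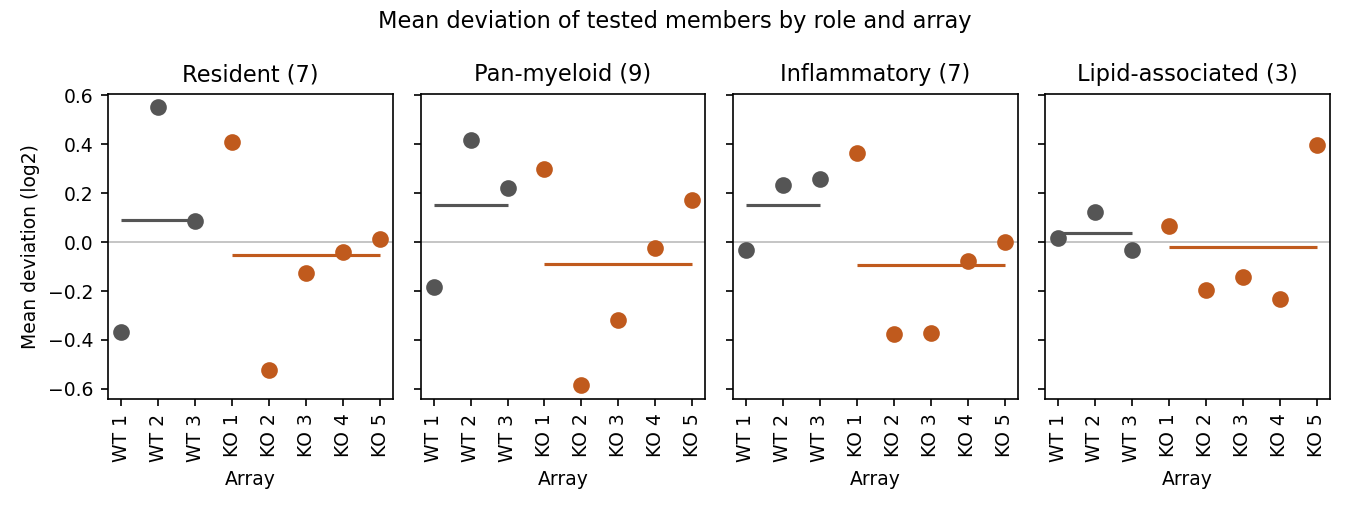
Mean deviation (log2) of the tested members of each role in each array, WT in grey and Abhd15 KO in orange, with horizontal lines at the mean of each label and the number of genes in brackets. Points of both labels overlap in all 4 panels, and the resident panel has the widest spread, from −0.52 to 0.55.

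Resident minus inflammatory score was −0.34, 0.32 and −0.17 in WT and 0.04, −0.15, 0.24, 0.04 and 0.02 in the KO-labelled arrays. The mean was −0.06 in WT and 0.04 in the KO-labelled arrays, which is 0.10 apart, with a spread within the labels (pooled SD) of 0.23, and it was 0.33 with a stricter dim limit, 0.01 with no dim filter, −0.03 without WT replicate 1, 0.05 without WT replicate 3, 0.05 without KO replicate 3 and 0.29 without WT replicate 2. The balance of resident to lipid-associated genes ranged from −0.39 to 0.43 in WT and from −0.38 to 0.34 in the KO-labelled arrays. Neither balance separated the labels. The WT arrays reached both the lowest and the highest value of each.

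Genes around these members were read from lists chosen with the design, and 0 of their tested genes passed the adjusted threshold in limma. At an unadjusted p under 0.05 in limma stood Csf2rb, Cxcl2, Ms4a7, Fcgr2b and, among the cell type markers, Xcr1. Each was the only such gene of its list, of 6, 19, 13, 14 and 9 tested, and no other list had any. Of all genes tested 1.77% were lower and 2.24% higher at that p in limma, so calls of this kind are also found across the array. Of the CSF1 and related growth factor genes 5 of 6 tested had a higher mean with the KO label and 1 a lower mean (median 0.19), with Il34, the second ligand of the CSF1 receptor, at 0.17 (−0.18 to 0.51) and Csf2rb, a shared receptor chain for GM-CSF, at 0.42 (0.10 to 0.74). Of the myeloid transcription factors 5 of 8 were higher (median 0.04). Spi1 itself differed by −0.18 (−0.50 to 0.13) and had the same highest arrays as the resident genes, and Cebpb, which adipocytes also use, differed by 0.37 (−0.05 to 0.79). Of other resident macrophage genes 9 of 13 were lower (median −0.17), with Ms4a7, a membrane protein of macrophages, at −0.66 (−1.18 to −0.14) and Sirpa, a receptor for the CD47 signal, at −0.32 (−0.67 to 0.04). In this list 6 of 13 genes (Folr2, F13a1, Pf4, Stab1, Gas6 and Fcna) were highest in WT replicate 2 and KO replicate 1.

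Of receptors and signalling genes around the adaptors Tyrobp and Fcer1g, inhibitory ones included, 10 of 14 tested were lower in the KO-labelled arrays (median −0.12). The inhibitory Fc receptor Fcgr2b was at −0.54 (−1.05 to −0.03) and the kinase Syk at −0.48 (−0.99 to 0.02). Of the complement partners 7 of 9 were lower (median −0.13), with Cfb, factor B of the alternative pathway, at −0.26 (−0.62 to 0.10) and Cd93 at 0.18 (−0.10 to 0.46). Of the chemokine receptors 3 of 4 were higher (median 0.24), with the patrolling-cell receptor Cx3cr1 at 0.56 (−0.06 to 1.18), while the monocyte receptor Ccr2 was at −0.50 (−1.05 to 0.06). Further inflammatory genes split into 11 higher and 8 lower (median 0.05), and Casp1, the inflammasome protease, was at 0.44 (−0.09 to 0.97). Cxcl2, a neutrophil attractant, had a WT mean of 2.51, below the dim limit, and 3.20 in the KO-labelled arrays. Lysosome and lipid-handling genes split into 10 higher and 8 lower (median 0.05), with the cholesterol exporter Abca1 at −0.23 (−0.48 to 0.01) and the vesicle protein Cd63 at −0.27 (−0.59 to 0.06).

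Lists of other cell types differed in how far they shared the order of the resident genes. KO replicate 2, the lowest array of 17 of the 26 tested members, was also lowest in 18 of 20 skeletal muscle genes, whose mean level ranged from 5.43 to 8.14 in WT and from 4.73 to 7.38 in the KO-labelled arrays. All 20 muscle genes had a lower mean in the KO-labelled arrays (median −0.57), and 0 of them reached an unadjusted p under 0.05 in limma. No muscle marker was dim in all arrays. The muscle score relative to its mean was 1.59, 0.63 and −1.12 in WT and −0.01, −1.82, −0.34, 0.83 and 0.23 in the KO-labelled arrays, so WT replicate 1 was highest in muscle genes and low in resident macrophage genes. Brown adipocyte markers had a list mean of 9.63 to 9.82 in WT and 9.31 to 9.93 in the KO-labelled arrays, and Ucp1 read 12.51 to 12.89 in the 8 arrays. Of the 11 markers tested, 5 (Dio2, Elovl3, Ppargc1a, Prdm16 and Plin1) spanned more than the median gene tested (0.67 log2), and Dio2, the enzyme that activates thyroid hormone in brown fat, spanned 4.47 to 8.32. KO replicate 3 was the lowest array for Dio2, Elovl3, Ppargc1a and Plin1. Of the fibroblast genes 5 of 9 (Col1a1, Col1a2, Col3a1, Lum and Dpt) were highest in WT replicate 2 and KO replicate 1, with a list mean of 7.02 to 7.54 in WT and 6.81 to 7.48 in the KO-labelled arrays. The fibroblast score had the same ends as the resident score. It was highest in WT replicate 2 (0.38) and KO replicate 1 (0.32) and lowest in KO replicate 2 (−0.35). The part of these cell types in the myeloid values was not tested.

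Endothelial genes had a higher mean in the KO-labelled arrays in 10 of 10 cases (median 0.11). Their list mean was 6.87 to 7.09 in WT and 6.94 to 7.32 with the KO label. Of the 10, 1 was highest in WT replicate 2 and KO replicate 1, and 7 peaked in KO replicate 2, the lowest array of most resident genes. The endothelial score was lowest in WT replicate 2 (−0.19), 0.10 in KO replicate 1 and highest in KO replicate 2 (0.26). Dendritic cell genes were lower in 6 of 9 cases (median −0.11), with a list mean of 4.57 to 5.02 in WT and 4.61 to 4.97 with the KO label. Markers of other leukocytes were mostly dim. In the B cell list 1 of 7 genes on the array was tested, in the mast cell and eosinophil list 2 of 10, in the T and NK cell list 5 of 12 and in the red cell list 1 of 2. The mean level of these lists ranged from 2.35 to 2.55, from 2.40 to 2.72, from 2.52 to 2.92 and from 2.29 to 3.45. Defining markers at or below the dim limit in all 8 arrays included Ms4a1 and Cd22 of B cells, Siglecf and Epx of eosinophils and Cd3d of T cells. Others were above it: Cd3e of T cells in all 8 arrays (3.44 to 4.51), Cpa3 of mast cells in all 8 (3.68 to 5.14) and Cd79a of B cells in 6 of 8.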

How the data were processed

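Total RNA (200 ng per mouse) from brown adipose tissue was hybridised to Affymetrix Mouse Gene 2.0 ST arrays. The deposited values are log2 signals per probe set and array, made with RMA and the oligo package per the submitters' processing notes. The design text also names Expression Console, so the program is not settled, and the genome build was not given in the sources used here. RMA makes the arrays' distributions alike, so a shift common to most genes is removed.

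Of 41345 probe sets, 23521 had 1 gene symbol in the platform annotation, 1814 several and 16010 none. The highest-mean single-symbol probe set stood for a gene. All 32 members had such a probe set, and levels of different probe sets were not compared. The dim limit (2.88) was the 95th percentile of the values of 1405 olfactory and vomeronasal receptor probe sets, and a gene entered the fit if at least 3 arrays exceeded it.

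The main test was limma's moderated test, version 3.58.1 under R 4.3.3, with 1 group term and Benjamini-Hochberg adjustment. Differences are Abhd15 KO minus WT, and 95% confidence intervals are not adjusted. Exact two-sided permutation tests used all 56 splits of the arrays and allow no p below 0.0179. Arrays give no read depth, and their number limits the precision. The fit was tested on simulated data.

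The members and lists were chosen with earlier results of these data known, so nothing was adjusted over a list alone. All members are named, and of each pathway list the 2 tested genes of lowest p. Single genes of the cell type lists were named after their values were seen. The alternatives were a replicate block, other dim filters, centring, quantile normalization, trend and robust fitting, array weights, mean probe sets, a looser threshold of 0.1, each array left out, and the arrays lowest in Angptl8 left out.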

Additional observations from a re-analysis of the deposited data

Results flagged for a closer look

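Among the 5 arrays labelled Abhd15 KO, 1 array stood far from the others in 3 of the 26 tested members, by Dixon's test at a critical ratio of 0.71. Chance alone gives such a gap in about 1 of 20 groups. Itgam read 4.82 in KO replicate 1 and 3.50 to 3.82 in the other 4 (gap over range 0.762). Ccl2 read 4.43 in the same array and 2.90 to 3.29 in the others (0.747). Cd14 read 3.82 in KO replicate 2 and 4.41 to 4.51 in the others (0.855). The WT arrays were too few for this check.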

How the results depend on the processing

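In all 19 alternatives 0 genes and 0 members passed, and the lowest adjusted p of a member in any of them was 0.939 (limma). Members at an unadjusted p under 0.05 in limma numbered 2 with all arrays, between 0 and 4 over the alternatives, and 0 without WT replicate 2, WT replicate 3 or KO replicate 3. With each array left out in turn, the number of members lower ranged from 13 to 23 of 26 and their median from −0.44 to −0.02, and the resident minus inflammatory difference from −0.03 to 0.29. That difference was 0.33 with the stricter dim limit and 0.01 with no dim filter.

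Of 457 member values under the alternatives, 425 kept their sign and 32, of 13 members, did not. Ranges with 1 array left out were −0.40 to 0.040 for Adgre1, −0.47 to 0.17 for Csf1r, −0.41 to 0.015 for Mrc1, −0.046 to 0.19 for C1qa, −0.56 to 0.10 for C1qb, −0.48 to 0.16 for C1qc, −0.10 to 0.22 for Cd68, −0.25 to 0.10 for Itgam, −0.62 to 0.058 for Fcer1g, −0.094 to 0.27 for Cd84, −0.63 to 0.18 for Il1b, −0.094 to 0.39 for Ccl2 and −0.027 to 0.32 for Gpnmb. Without the arrays lowest in Angptl8 the values were 0.058 for Csf1r, 0.064 for C1qc and −0.0018 for Cd84, and 19 of 26 members were lower (median −0.11). The causes were not tested.

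With the replicate number as a block, which leaves KO replicates 4 and 5 without a partner, 0 genes and 0 members passed, 20 of 26 members were lower (median −0.23), and Cd68 read −0.13, Itgam 0.12, Cd84 −0.14 and Il1b 0.20. The numbers share nothing the labels state: same-numbered arrays correlated at −0.26, −0.10 and 0.02 in their deviations, and WT replicate 2 with KO replicate 1 at 0.39, above any same-numbered pair. Signal near the dim limit bounds Il1b, Ccl3, Lgals3 and the 6 untested members.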

Other observations

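The class II genes H2-Aa, H2-Ab1 and H2-Eb1, which macrophages, dendritic cells and B cells express, each peaked in WT replicate 2 and KO replicate 1. H2-Ab1 read 6.50, 8.38 and 7.71 in WT and 8.11, 6.71, 6.94, 6.88 and 7.19 in the KO-labelled arrays (difference −0.36, −1.33 to 0.60). Ciita, the factor that switches class II genes on, had other highest arrays, KO replicates 1 and 2 (3.99 and 4.03, with 3.81 in WT replicate 2), and 3 of the 9 dendritic genes tested peaked in WT replicate 2 and KO replicate 1. H2-Aa read 5.66, 6.96 and 6.43 and then 6.60, 5.49, 5.97, 6.22 and 5.90. Ccl7, a monocyte attractant, read 2.47, 4.78 and 3.89 in WT and 4.56, 3.67, 3.66, 3.32 and 3.13 in the KO-labelled arrays, again highest in that pair. Xcr1, a receptor of cross-presenting dendritic cells, read 2.74, 2.83 and 2.51 in WT, all below the dim limit, and 2.86 to 3.23 in the KO-labelled arrays. These genes were picked after their values were seen.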
